A study of Rattus norvegicus with 3 samples.

Results

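Gjb2, Gjb6 and Gja1 were followed in dissociated cells of the rat cochlear basal membrane at 3 postnatal stages. They encode connexin 26, connexin 30 and connexin 43, and they were taken as a fixed list of 3 of the 32623 genes in the count matrices, which hold 19 connexin genes in all. The animals were untreated Sprague-Dawley rats on postnatal days 1, 7 and 14 (called P1, P7 and P14). Rats of one stage were pooled into 1 library, so each stage had 1 library and no replicate. No group carried an engineered allele or an agent. The paper states that spiral ganglia, spiral ligaments and stria vascularis were removed from the tissue before dissociation. How much of them remained at each stage was not measured, and it cannot be told apart from stage. With 1 library per stage, stage and library cannot be told apart, and no test between stages was possible. Every interval is an exact 95% interval that covers counting error only.

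Connexins assemble into hexameric hemichannels, and hemichannels of adjoining cells dock to form gap junction channels that pass ions and small molecules. In the cochlea such channels join the supporting cells of the sensory epithelium into one network and the fibrocytes of the lateral wall, with basal and intermediate cells of the stria vascularis, into another. These networks are thought to carry potassium away from hair cells and back towards the stria. Connexin 26 and connexin 30 are the major cochlear connexins, their genes lie side by side, and loss of either can cause deafness. Connexin 43 is widely expressed in connective tissue, vessels and developing bone.

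The submitters labelled the cells as greater epithelial ridge cells, but the libraries held many other cell types. Of 30641 kept cells, 12779 were from P1, 12581 from P7 and 5281 from P14. A cluster was named only from a list of marker genes, and its name ends in "-like". Epithelial markers such as Epcam, Tectb and Epyc named 271 cells at P1, 215 at P7 and 53 at P14 as cochlear epithelium-like, and the otic mesenchyme-like cells (Isyna1, Crym, Otor) alone numbered 3236 at P1. At P1 the cartilage-like cells were named from Cnmd and Cytl1, and 4 of 8 cartilage markers (Acan, Matn1, Matn3 and Comp) were at 0. In all, 45.9% of the cells lay in named clusters. The others are called by their leading genes. Connexin genes were kept out of the clustering, so that they could not shape the groups in which they are compared.

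Depth differed between the libraries. The median cell held 6565 unique molecular identifiers (UMIs) at P1, 6878 at P7 and 1614 at P14. Levels are therefore given as CPM, the summed UMIs of a gene per 1000000 UMIs of the same cells. Shares of cells were read after every cell had been thinned at random to 1000 UMIs, which left out 965 shallower cells (37 at P1, 193 at P7 and 735 at P14). Scrublet, a doublet caller, marked 4.87% of P1 cells, 6.16% of P7 cells and 0.0379% of P14 cells, too few at P14 for its calls to be relied on, so doublets of P14 were not assessed. The libraries shared 88 barcodes.

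The sequence before each gene is shown because Gjb2 and Gjb6 are neighbours and followed each other closely across the cell groups, as described further on. The 250 bases upstream of the annotated start were taken from RefSeq on the assembly GRCr8, a later build than the rn6 of the count files. Gjb2 and Gjb6 are adjacent protein-coding genes on chromosome 15, and Gja1 lies on chromosome 20 between Msl3l2 and Hsf2. The windows are chr15:35381954-35382203 for Gjb2 and chr15:35410139-35410388 for the outer of the annotated starts of Gjb6, both on the minus strand, and chr20:36302314-36302563 for Gja1 on the plus strand. Each is written 5′ to 3′ towards the start, and capitals mark the motifs described after them.
Gjb2: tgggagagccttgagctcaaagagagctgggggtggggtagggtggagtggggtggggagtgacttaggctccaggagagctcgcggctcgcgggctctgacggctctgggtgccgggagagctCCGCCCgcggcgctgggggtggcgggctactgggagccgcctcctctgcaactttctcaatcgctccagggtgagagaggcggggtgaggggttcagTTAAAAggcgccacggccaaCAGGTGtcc
Gjb6: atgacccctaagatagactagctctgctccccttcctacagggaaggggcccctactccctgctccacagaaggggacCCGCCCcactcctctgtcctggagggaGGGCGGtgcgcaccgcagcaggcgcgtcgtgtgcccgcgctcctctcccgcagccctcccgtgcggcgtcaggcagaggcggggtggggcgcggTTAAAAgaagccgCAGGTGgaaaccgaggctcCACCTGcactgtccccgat
Gja1: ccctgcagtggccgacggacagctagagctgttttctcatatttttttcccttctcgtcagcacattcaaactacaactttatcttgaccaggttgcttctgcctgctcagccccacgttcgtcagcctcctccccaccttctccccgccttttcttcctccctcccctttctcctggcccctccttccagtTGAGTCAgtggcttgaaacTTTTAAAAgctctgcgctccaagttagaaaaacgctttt

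GC content was 67.2% before Gjb2 and 68.0% before the outer Gjb6 start, against a median of 51.2% over 33469 rat promoters, and it was 51.2% before Gja1. The other annotated Gjb6 start, at the window chr15:35408963-35409212, also had 51.2% GC, with 1 GGGCGG on the opposite strand at 102 bases and neither TTAAAA nor CAGGTG. The motifs were chosen after the sequences had been seen, and they were searched on both strands of the window. A GC box core (GGGCGG) stood 126 bases before the Gjb2 start, on the opposite strand, and 145 and 172 bases before the Gjb6 start. It is found in 30.5% of all promoters. TTAAAA stood 29 bases before the Gjb2 start, 51 bases before the Gjb6 start and 37 bases before the Gja1 start, where it overlaps its own copy on the other strand. It occurs in 19.0% of all promoters. CAGGTG, an E-box, followed TTAAAA before Gjb2 and before the outer Gjb6 start, 9 bases before the Gjb2 start and 38 bases before the Gjb6 start, with a second copy on the other strand of Gjb6 at 19 bases, against 15.9% of all promoters. Only the Gja1 window held TGAGTCA, an AP-1 type motif, 58 bases before the start, a motif of 4.05% of promoters. TATAAA, present in 12.9% of promoters, was in none of these windows. A match describes letters and not a bound site.

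Over all cells, each of the connexin genes was higher at each later stage. Gjb2 stood at 50.9 CPM (49.5 to 52.4) at P1, 137 CPM (134 to 139) at P7 and 743 CPM (727 to 759) at P14. Gjb6 stood at 17.1 CPM (16.3 to 18.0), 56.9 CPM (55.4 to 58.5) and 390.4 CPM (379 to 402). Gja1 stood at 11.3 CPM (10.6 to 12.0), 23.6 CPM (22.6 to 24.6) and 96.3 CPM (90.7 to 102). The intervals of successive stages did not overlap for any of these genes. They rest on 4992, 12724 and 8646 UMIs of Gjb2 and on 1105, 2194 and 1121 UMIs of Gja1.

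The log2 ratio of P7 to P1 was 1.42 (1.38 to 1.47) for Gjb2, 1.73 (1.65 to 1.81) for Gjb6 and 1.06 (0.96 to 1.17) for Gja1. The step from P7 to P14 was larger for each gene, with log2 ratios of 2.44 (2.402 to 2.481) for Gjb2, 2.78 (2.72 to 2.84) for Gjb6 and 2.03 (1.93 to 2.14) for Gja1. Gjb6 thus had the highest ratio of the 3 genes at both steps. With 10 CPM added to both stages, Gjb2 and Gjb6 were past 2-fold from P1 to P7 and Gja1, at a log2 difference of 0.66, was not, while 3.2% of 8222 genes were that much higher. From P7 to P14 all 3 genes were past 2-fold, as were 11.3% of 9048 genes. The median gene differed by 0.10 and 0.13 on this log2 scale.

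The share of cells with a UMI followed the same order. After thinning, Gjb2 was found in 4.73% of P1 cells, 11.1% of P7 cells and 36.8% of P14 cells. Before thinning the shares were 20.4%, 36.5% and 41.6%, a smaller difference, with the deeper cells at P1 and P7. Gjb6 was found in 1.64%, 5.14% and 25.7% of thinned cells and in 9.47%, 22.8% and 30.8% of whole cells. Gja1 was found in 1.00%, 2.33% and 6.27% of thinned cells and in 5.75%, 13.1% and 10.8% of whole cells. The order of P7 and P14 for Gja1 thus depended on depth, and the thinned share is in the order of the CPM. In neuron-like cells of P1, which should lack these genes, none of 288 thinned cells held a UMI of any of them, which at the thinned depth allows up to 1.04% of cells with a UMI. Before thinning, at a median of 21171 UMIs, 2.08% of them held Gjb2, 0.35% Gjb6 and 3.82% Gja1. In B cell-like cells of P14 the thinned share was 3.15% for Gjb2, 2.10% for Gjb6 and 0.70% for Gja1, at a median of 3534 UMIs.

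**Figure D1:**
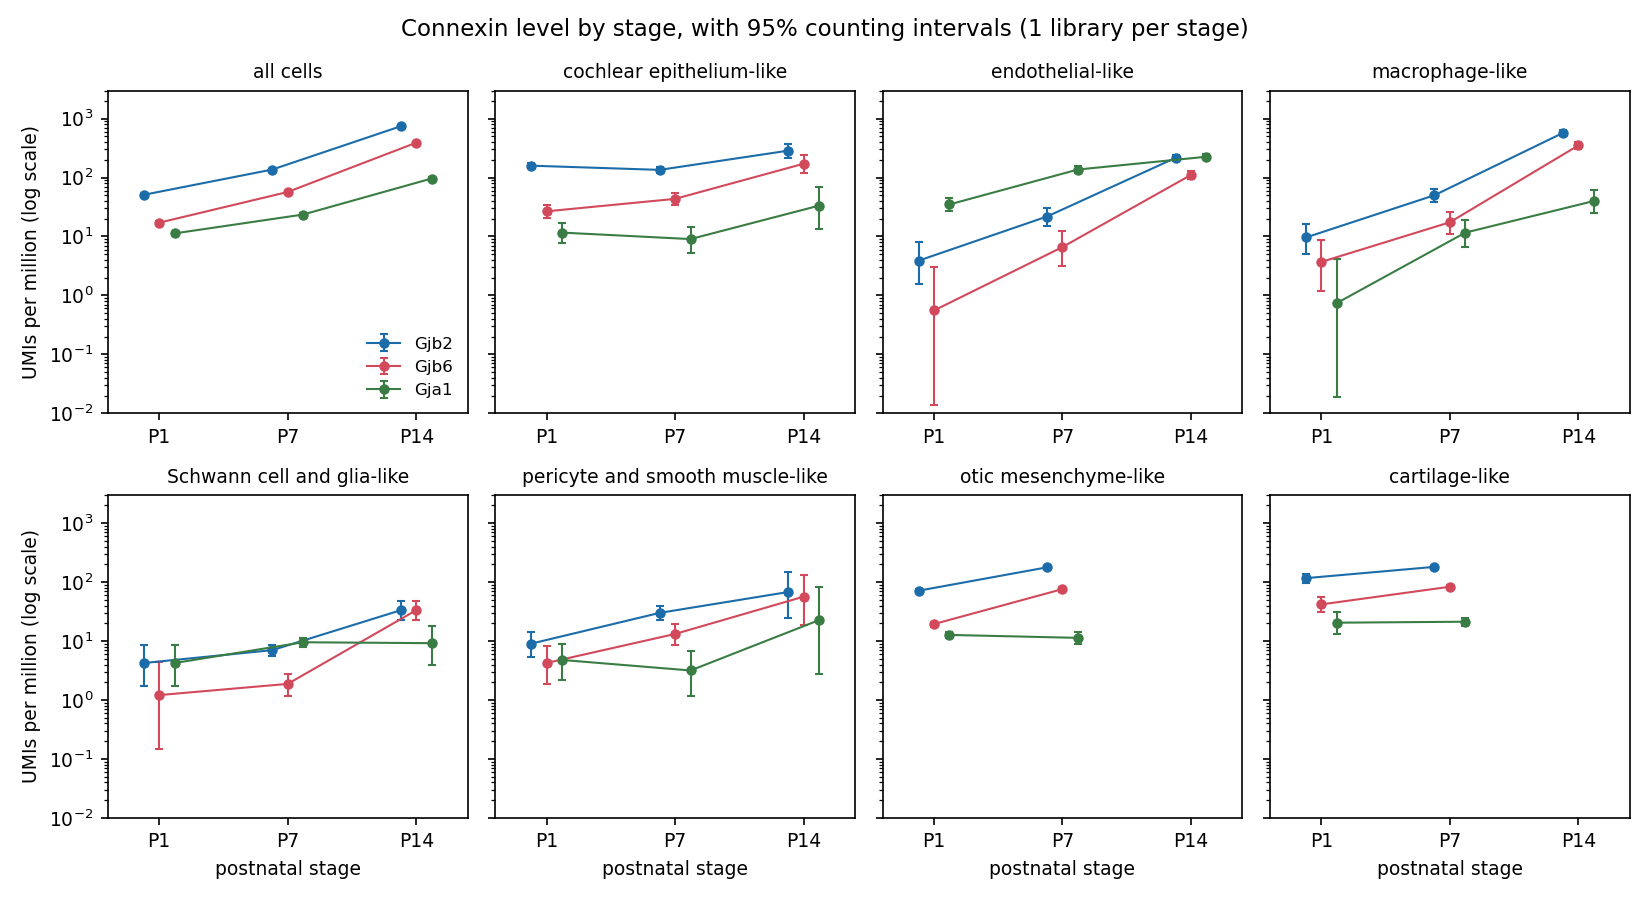
Level of Gjb2, Gjb6 and Gja1 in CPM (log scale) at P1, P7 and P14, over all cells and in 7 named cell types, with bars for exact 95% counting intervals and 1 library per stage. Over all cells Gjb2 went from 50.9 to 743 CPM, while in cochlear epithelium-like cells it was 159, 135 and 286 CPM.

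The P1 to P7 difference lay partly within clusters and partly in which clusters were present. When the P1 to P7 difference was split over the clusters, 73.6% of it lay within clusters for Gjb2 and 78.8% for Gjb6, and 1.67% for Gja1. The Gja1 share turned on 1 P1 cell of the Dlx5, Sfrp4 and Igf2 cluster that held 40 Gja1 UMIs, and without it, a choice made after the values were seen, 40.5% lay within clusters. From P7 to P14 the same split put 52.7%, 56.7% and 47.7% within clusters for Gjb2, Gjb6 and Gja1. Any cell at both stages sufficed, so the P7 fibrocyte-like level came from 12 cells with 7 Gjb2 UMIs, against 2605 cells at P14. These are too few to give a level, so no part within clusters was read for this step. A cluster empty at one stage was given the level of the other in this split. Of 17 groups with 50 cells or more at both P1 and P7, Gjb6 was higher at P7 in 17, Gjb2 in 14 and Gja1 in 11. The interval of the ratio lay above 0 in 14, 12 and 9 of them. With 10 CPM added, Gjb6, Gjb2 and Gja1 were past 2-fold in 6, 8 and 2 groups. Between 2.21% and 6.23% of genes were that much higher in these groups. Of 5 groups present at P7 and P14, Gjb2 and Gjb6 were higher at P14 in 5 and Gja1 in 4. These groups share a library at each stage and are not replicates.

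In the cochlear epithelium-like cells Gjb2 was already high at P1. It stood at 159 CPM (143 to 176) there, the highest of 18 groups, with Gjb6 at 26.7 CPM (20.5 to 34.2) and Gja1 at 11.6 CPM (7.67 to 16.9). At P7 Gjb2 was 135 CPM (118 to 153), Gjb6 43.5 CPM (34.3 to 54.3) and Gja1 9.03 CPM (5.16 to 14.7). The Gjb2 level was thus no higher at P7 than at P1, and the interval of the log2 ratio (-0.48 to 0.00) included 0. One P7 cell held 55 of 239 Gjb2 UMIs and 20 of 77 Gjb6 UMIs, and without it, a choice made after the values were seen, the levels were 105 CPM (Gjb2) and 32.7 CPM (Gjb6). At P14 Gjb2 was 286 CPM (218 to 368) and Gjb6 was 171.5 CPM (120 to 237), from 60 and 36 UMIs in 53 cells. One P14 cell held 12 of the Gjb2 UMIs and another held 10 of the Gjb6 UMIs. Without the top cell of each gene, the same kind of choice, the levels were 234 CPM (Gjb2) and 130 CPM (Gjb6). The ratios that follow keep all cells. Against P7 the log2 ratio was 1.08 (0.65 to 1.497) for Gjb2, 1.98 (1.37 to 2.57) for Gjb6 and 1.88 (0.36 to 3.25) for Gja1, which had 7 UMIs at P14. With 10 CPM added the 3 genes were past 2-fold, as were 11.2% of the genes tested in these cells. Thinned shares of epithelium-like cells with Gjb2 were 15.4%, 9.57% and 14.0% at P1, P7 and P14, and whole cells gave 48.3%, 39.1% and 24.5%, so no order of P14 was read from shares. At the lower clustering resolution of 0.4 the epithelium-like group of P14 held 79 cells and Gjb6 stood at 354 CPM.

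The makeup of the epithelium-like group differed between stages. Genes of marginal cells, the potassium-secreting cells of the stria vascularis, summed to 33.6 CPM at P1, 54.2 CPM at P7 and 1791 CPM at P14, with 6 of 7 markers found at each stage. Esrrb was at 0 at P1 and P7. Fibrocyte markers summed to 36.2, 155 and 1639 CPM. The 27 cells of P14 with 2 or more marginal cell UMIs held Gjb2 at 222 CPM (144 to 328) and Gjb6 at 160.2 CPM (94.9 to 253). The other 26 held Gjb2 at 359 CPM (250.04 to 499) and Gjb6 at 185 CPM (109 to 292). The intervals of these subsets overlapped for both genes. The part of the cell mixture in the stage difference was not tested beyond this split. Hair cell-like cells, 21 at P1, held 3 UMIs of Gjb2 (9.14 CPM, 1.88 to 26.7), 2 of Gjb6 and 0 of Gja1, for which a floor of 3 counts is 9.14 CPM.

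At P1 and P7 most connexin UMIs lay in groups here called mesenchymal. These are the otic mesenchyme-like and cartilage-like cells and the unnamed clusters led by Plagl1, by Dlx5, by Aldh1a2 and by Aard. Together they held otic mesenchyme markers at 15740 CPM at P1 and 16655 CPM at P7, and epithelial markers at 103 and 168 CPM. The unnamed clusters did not meet the naming rule. Otic mesenchyme-like cells held 30.2% of the Gjb2 UMIs of P1, and the cluster led by Plagl1, Col6a1 and Tac1 held 30.03%. At P7 the cluster led by Aard, Col15a1 and Lepr (cluster 8 in the plots) held 27.4% of the Gjb2 UMIs and the cluster led by Dlx5, Sfrp4 and Igf2 held 25.2%. In otic mesenchyme-like cells, marked by Otor and Crym, Gjb2 was 71.5 CPM (67.9 to 75.2) at P1 and 178 CPM (168 to 189.5) at P7. Gjb6 was 19.4 CPM (17.6 to 21.4) and 76.2 CPM (69.2 to 83.6). Gja1 was 12.7 CPM (11.2 to 14.3) and 11.3 CPM (8.74 to 14.4), with overlapping intervals. The log2 ratios of P7 to P1 were 1.32 for Gjb2 and 1.97 for Gjb6, both past 2-fold with 10 CPM added, and 3.34% of genes tested in these cells were that much higher. Gjb2 and Gjb6 were thus higher at P7 in these cells while Gja1 was level within its counting error.

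Gjb2 and Gjb6 were also higher at P7 in several other mesenchymal groups. The cluster led by Aldh1a2, Calb2 and Kcnk2 held Gjb2 at 70.8 CPM (65.5 to 76.5) at P1 and 141 CPM (133 to 149) at P7, and Gjb6 at 37.5 CPM (33.7 to 41.7) and 87.9 CPM (81.8 to 94.5). In cartilage-like cells Gjb2 was 117 CPM (97.6 to 139) and 182 CPM (172 to 191), and Gjb6 was 41.9 CPM (30.8 to 55.7) and 83.5 CPM (77.2 to 90.1). The cluster of Plagl1, Col6a1 and Tac1 held Gjb2 at 85.6 CPM (81.3 to 90.05) and 144 CPM (125 to 164). The Dlx5, Sfrp4 and Igf2 cluster held Gjb2 at 82.1 CPM (63.8 to 104) and 175 CPM (169 to 181). Its Gja1 was 73.7 CPM (56.4 to 94.7) at P1, the highest of that stage, and 18.1 CPM (16.2 to 20.2) at P7. One P1 cell held 40 of its 61 Gja1 UMIs, and without that cell, a choice made after the values were seen, Gja1 was 25.7 CPM (15.9 to 39.3). Not every unnamed cluster was high. The cluster led by Sp5, Cav1 and Olfm1 held Gjb2 at 5.15 CPM (3.92 to 6.64) at P1 and 5.03 CPM (1.63 to 11.7) at P7, and no Gja1 UMI at P7, for which a floor of 3 counts is 3.02 CPM.

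At P7 the Aard, Col15a1 and Lepr cluster stood highest in Gjb2 and Gjb6 among groups of usual depth, and second to endothelial-like cells in Gja1. It held 1411 P7 cells, with Gjb2 at 354 CPM (343 to 366), Gjb6 at 108 CPM (101 to 114) and Gja1 at 70.0 CPM (64.8 to 75.4). Its fibroblast markers summed to 14674 CPM and its fibrocyte markers to 141 CPM, with 8 of 8 genes of each list found. Gja1 UMIs of P7 lay there to 31.4%. A shallow cluster led by globin genes (cluster 21) held Gjb2 at 363 CPM (315 to 416). Its median cell had 1237 UMIs, and Gjb2 was itself among its 10 leading genes.

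At P14 most Gjb2 and Gjb6 UMIs lay in the cells called fibrocyte-like, a name that is uncertain for part of them. Fibrocytes are the connective tissue cells of the lateral wall and limbus, and the 2605 cells were named from Coch and Otos in one cluster and Slc7a11 and Slc16a11 in another. The name of the second rests on those markers: its fibrocyte list summed to 6626 CPM with Otos at 156 CPM, against 24537 and 5726 CPM in the first. Its Coch, at 1461 CPM, was below the 4114 CPM of macrophage-like cells. Its Ptgds, at 69309 CPM, was far above the 3058 CPM of the first, so the name is uncertain. It held 3765 of the 7311 Gjb2 UMIs. The first cluster alone held 3546 of the 8646 Gjb2 UMIs and 1414 of the 4545 Gjb6 UMIs of P14. Together the 2605 cells made up 49.3% of P14 cells and 39.5% of P14 UMIs. They held 84.6% of the Gjb2 UMIs, 82.7% of the Gjb6 UMIs and 56.0% of the Gja1 UMIs. Gjb2 stood at 1589 CPM (1553 to 1626), Gjb6 at 817 CPM (792 to 844) and Gja1 at 137 CPM (126 to 148). Outside them P14 cells held Gjb2 at 189.6 CPM (179.6 to 200.05), Gjb6 at 111.5 CPM (104 to 120) and Gja1 at 70.0 CPM (64.0 to 76.5). Only 7 P1 cells and 12 P7 cells carried the name, too few to give a level, so there is no earlier level of this group.

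The fibrocyte-like clusters differed from each other in connexin levels. The larger, of 1763 cells led by Coch and Otos, held Gjb2 at 1185 CPM (1146 to 1224), Gjb6 at 472 CPM (448 to 498) and Gja1 at 155 CPM (141 to 170). The smaller, of 842 cells led by Ptgds, Slc7a11 and Slc16a11, held Gjb2 at 2343 CPM (2269 to 2419), Gjb6 at 1460.0 CPM (1402 to 1520.3) and Gja1 at 102 CPM (87.0 to 119). By CPM, Gjb2 and Gjb6 were thus higher and Gja1 lower in the smaller cluster, with no overlap of the intervals. The thinned share of cells with Gja1 went the other way, at 5.125% in the larger cluster and 8.23% in the smaller. One fibrocyte-like cell held 31 of the 628 Gja1 UMIs, and 28 of the 2605 cells held 5 or more. The direction for Gja1 thus depended on the measure. In that cluster Gjb6 was among the 10 leading genes, Coch was at 1461 CPM, and the solute carriers Slc22a2, Slc6a13 and Slc22a6 led beside the fibrocyte markers. The Gjb6 share of the summed Gjb2 and Gjb6 UMIs was 28.5% in the larger and 38.4% in the smaller cluster. At the higher resolution of 1.2, or with connexins allowed in the clustering, only about the smaller cluster kept the name (850 and 860 P14 cells).

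**Figure D2:**
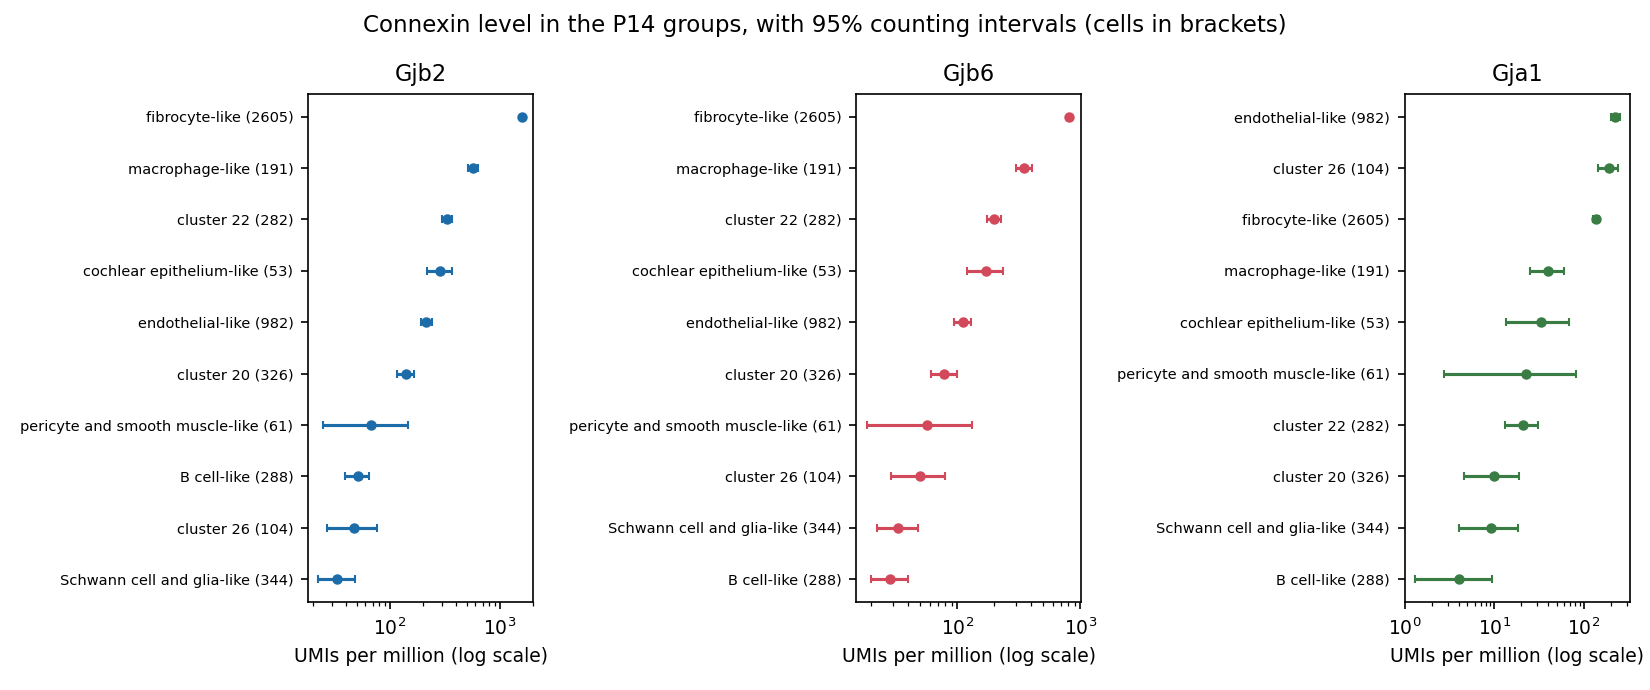
Level of Gjb2, Gjb6 and Gja1 in CPM (log scale) in the 10 groups of P14 with 50 cells or more, in order of level, with exact 95% counting intervals and the number of cells in brackets. Fibrocyte-like cells were highest for Gjb2 (1589 CPM) and Gjb6 (817 CPM), and endothelial-like cells for Gja1 (225.5 CPM). The fibrocyte-like cells pool the Coch and Otos cluster with a cluster whose fibrocyte name is uncertain.

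Macrophage-like cells stood second for Gjb2 and Gjb6 at P14. Gjb2 was 9.61 CPM (5.12 to 16.4) at P1, 50.1 CPM (39.0 to 63.4) at P7 and 572 CPM (510 to 639) at P14. Gjb6 was 3.70 CPM, 17.4 CPM and 350.4 CPM, and Gja1 was 0.74 CPM, 11.6 CPM and 39.9 CPM. From P7 to P14 the 3 genes were past 2-fold with 10 CPM added, as were 11.7% of the genes tested in these cells. The fibrocyte list moved with them, at 52.5, 197 and 5123 CPM, with 6, 8 and 6 of its 8 markers found, and Lamc3 and Slc4a10 at 0 at P1 and P14. In a split chosen after the values were seen, the 51 macrophage-like cells of P14 with no fibrocyte marker UMI held 1 UMI of each connexin gene, or 10.6 CPM (0.27 to 58.9). The other 140 held Gjb2 at 688 CPM (614 to 769). Without the cells called doublets, Gjb2 at P1 was 1.90 CPM. With connexins allowed in the clustering only 4 P14 cells were named macrophage-like, against 191 here, so the P14 level was not rerun there.

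Endothelial-like cells, which line blood vessels, were the group highest in Gja1 at P14. Gja1 stood at 34.9 CPM (26.8 to 44.7) at P1, 137 CPM (119 to 157) at P7 and 225.5 CPM (202 to 250.5) at P14. The log2 ratio was 1.97 (1.56 to 2.401) from P1 to P7 and 0.72 (0.47 to 0.98) from P7 to P14. Across the alternatives tried the first of these ranged from 1.93 to 2.22. At the higher resolution of 1.2 only 21 P14 cells were named endothelial-like, against 982 here, so the P14 level was not rerun there. Past 2-fold with 10 CPM added were Gja1 and Gjb2 from P1 to P7, where 3.08% of genes were that much higher. From P7 to P14 they were Gjb2 and Gjb6, against 16.7% of genes.

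Gjb2 and Gjb6 behaved otherwise than Gja1 in these cells. Gjb2 was 3.88 CPM (1.56 to 7.99), 21.8 CPM (15.01 to 30.6) and 216 CPM (193 to 240.2) at P1, P7 and P14. Gjb6 was 0.55 CPM (0.01 to 3.09), 6.61 CPM (3.17 to 12.2) and 111 CPM (94.8 to 129). The fibrocyte list summed to 11.1, 293 and 1798 CPM, with 5, 5 and 7 of 8 markers found. Without the cells called doublets Gjb2 was 1.34 CPM at P1 and 2.50 CPM at P7. The 456 endothelial-like cells of P14 without a fibrocyte marker UMI held Gjb2 at 34.5 CPM (21.3 to 52.7) and Gjb6 at 27.9 CPM (16.3 to 44.7), and Gja1 at 276 CPM (236 to 321). Without fibrocyte marker UMIs Gja1 was thus no lower, while Gjb2 and Gjb6 were lower.

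The remaining groups of P14 ran from 333 CPM of Gjb2 downwards. An unnamed cluster led by Lyz2, Srgn and S100a4 among others (cluster 22) held Gjb2 at 333 CPM (299.6 to 368) and Gjb6 at 200.5 CPM (175 to 229), and its 86 cells without a fibrocyte marker UMI held Gjb2 at 26.3 CPM (8.55 to 61.4). A cluster led by Slco1a4, Abcb4 and Sox17 (cluster 26), with 7 of 7 endothelial and 9 of 9 pericyte markers found, held Gja1 at 189 CPM (146 to 241) and Gjb2 at 47.3 CPM (27.0 to 76.8). Its Gja1 level lay between those of endothelial-like and fibrocyte-like cells. Pericyte and smooth muscle-like cells held Gjb2 at 9.03, 30.1 and 68.0 CPM at P1, P7 and P14, from 17, 57 and 6 UMIs. Without the cells called doublets the P7 value was 10.9 CPM.

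Levels were low in neuron-, Schwann cell- and B cell-like cells. Neuron-like cells of P1 held Gjb2 at 1.65 CPM (0.79 to 3.04), Gjb6 at 0.17 CPM from 1 UMI and Gja1 at 1.82 CPM (0.91 to 3.25). Schwann cell and glia-like cells held Gjb2 at 4.24 CPM (1.70 to 8.73), 7.01 CPM (5.61 to 8.66) and 33.4 CPM (22.3 to 47.9) at P1, P7 and P14. Their Gja1 was 4.24, 9.54 and 9.20 CPM. B cell-like cells of P14 held Gjb2 at 50.9 CPM (39.2 to 65.0), Gjb6 at 28.6 CPM (20.1 to 39.7) and Gja1 at 3.98 CPM (1.29 to 9.28), with fibrocyte markers at 404 CPM. As a share of the fibrocyte-like level these were 3.20% for Gjb2, 3.50% for Gjb6 and 2.91% for Gja1, beside 2.00% for Coch.

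In order of level, most neighbouring groups could not be told apart by counting error. At P14 the Gjb2 order was fibrocyte-like, macrophage-like and the Lyz2, Srgn and S100a4 cluster (cluster 22), each apart from the next in that run, and 6 of 9 neighbouring pairs overlapped over the whole order. For Gja1 at P14, 8 of 9 pairs overlapped, and endothelial-like cells could not be told from the Slco1a4, Abcb4 and Sox17 cluster. At P1, 13 of 17 Gjb2 pairs, 16 of 17 Gjb6 pairs and 15 of 17 Gja1 pairs overlapped. At P7 the overlapping pairs were 14, 16 and 16 of 18. The medians over groups at P1, P7 and P14 were 10.1, 116 and 178 CPM for Gjb2, 3.97, 43.5 and 94.8 CPM for Gjb6, and 6.08, 18.1 and 28.0 CPM for Gja1.

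Over all cells Gjb6 took a larger part of the Gjb2 and Gjb6 UMIs at later stages, but not in every group. Over all cells its share was 25.2% (24.1 to 26.2) at P1, 29.4% (28.7 to 30.1) at P7 and 34.5% (33.6 to 35.3) at P14. In epithelium-like cells it was 14.4% (11.2 to 18.1), 24.4% (19.7 to 29.5) and 37.5% (27.8 to 48.0). In otic mesenchyme-like cells it was 21.3% (19.5 to 23.3) at P1 and 29.9% (27.6 to 32.4) at P7. In cartilage-like cells it was 26.4% (20.1 to 33.5) and 31.5% (29.5 to 33.6), with overlapping intervals. From P1 to P7 the share was lower in macrophage-, pericyte and smooth muscle-, and Schwann cell and glia-like cells. It was also lower in the cluster led by Gas7, Lgi4 and Ednrb. The intervals overlapped in each of these, and in the other groups compared the share was higher at P7. Among mesenchymal groups of P7 with 90 or more such UMIs, the Aldh1a2, Calb2 and Kcnk2 cluster had the highest share at 38.5% (36.3 to 40.7), and the Aard, Col15a1 and Lepr cluster had the lowest at 23.3% (22.1 to 24.6). Macrophage-like, B cell-like and endothelial-like cells of P14, at 38.0%, 36.0% and 33.9%, had intervals that included the 34.0% of the fibrocyte-like cells. Schwann cell and glia-like cells of P14 had a share of 50% (36.6 to 63.4), from 58 UMIs, but 1 cell held 10 of their 29 Gjb6 UMIs. The Slco1a4, Abcb4 and Sox17 cluster had 51.5% (33.5 to 69.2), from 33 UMIs, and 1 cell held 7 of its 17 Gjb6 UMIs. These intervals do not cover such uneven spread over cells, so no difference from fibrocyte-like cells was read.

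**Figure D3:**
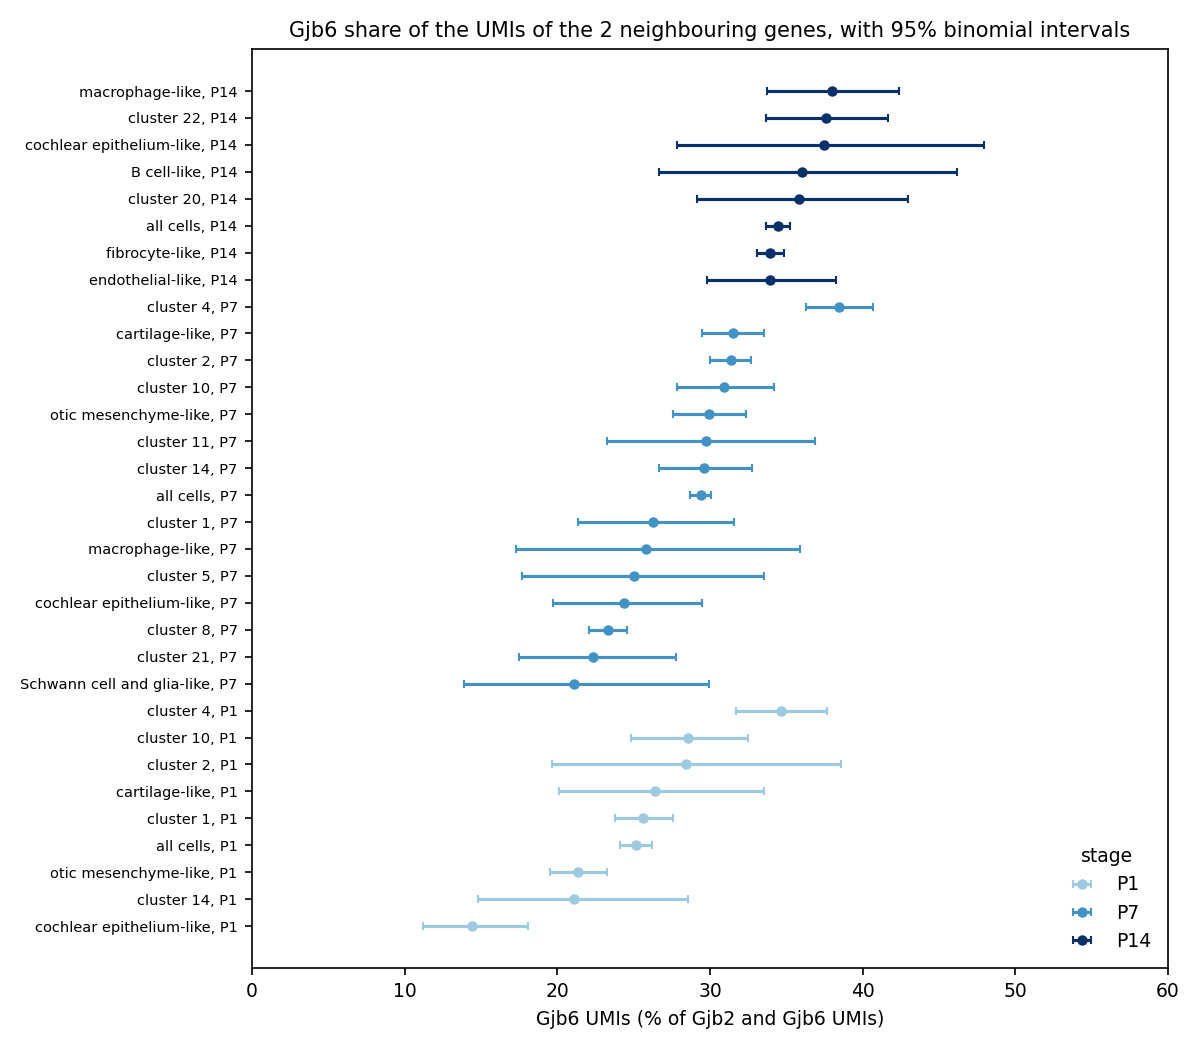
Gjb6 UMIs as a percentage of the Gjb2 and Gjb6 UMIs of a group, by stage, for groups with 90 or more such UMIs, with exact 95% binomial intervals. The share over all cells was 25.2% at P1, 29.4% at P7 and 34.5% at P14, and that of epithelium-like cells went from 14.4% to 37.5%.

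Gjb2 and Gjb6 were found together in more cells than their separate shares would give. After thinning, both were found in 33 of 12742 P1 cells (0.259%), 174 of 12388 P7 cells (1.40%) and 886 of 4546 P14 cells (19.5%). The products of the separate shares were 0.0776%, 0.570% and 9.46%. Of cells with Gjb6, 15.8% also held Gjb2 at P1, 27.3% at P7 and 75.7% at P14. Of cells with Gjb2, 5.47%, 12.7% and 53.0% also held Gjb6. These libraries mix groups of different level, and the values within single groups follow.

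Within fibrocyte-like cells of P14 the excess was smaller. Both genes were found in 817 of 2402 thinned cells, or 34.0% (32.1 to 35.9), against a product of 25.9%. Gjb2 alone was found in 26.1%, Gjb6 alone in 7.62%, and at least one of the 3 genes in 72.3%. Of the cells with Gjb6, 80.7% also held Gjb2. In the larger cluster both were found in 22.1% against a product of 15.2%, and in the smaller in 57.9% (54.4 to 61.3) against 54.8%, which lies inside that interval. Thinned fibrocyte-like cells held up to 13 UMIs of Gjb2 and 8 of Gjb6, and 25.6% of them held 3 or more of Gjb2.

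Gja1 did not show this excess in fibrocyte-like cells. Gjb2 and Gja1 were found together in 71 cells (2.96%) against a product of 3.79%, and Gjb6 and Gja1 in 50 cells (2.08%) against 2.60%. All 3 genes were found in 38 cells there, and in 1, 9 and 42 cells of the P1, P7 and P14 libraries. In the Aard, Col15a1 and Lepr cluster of P7, Gjb2 and Gjb6 were found together in 56 of 1411 cells (3.97%) against 2.95%. In epithelium-like cells of P1 the number was 6 of 266 cells (2.26%), with an interval of 0.83 to 4.84% and a product of 0.52%. In endothelial-like cells of P14 it was 26 of 623 cells (4.17%) against 0.742%, and all 26 lay among the cells with a fibrocyte marker UMI. In macrophage-like cells of P14 it was 18 of 171 cells (10.5%) against 4.38%, again all with a fibrocyte marker UMI.

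**Figure D4:**
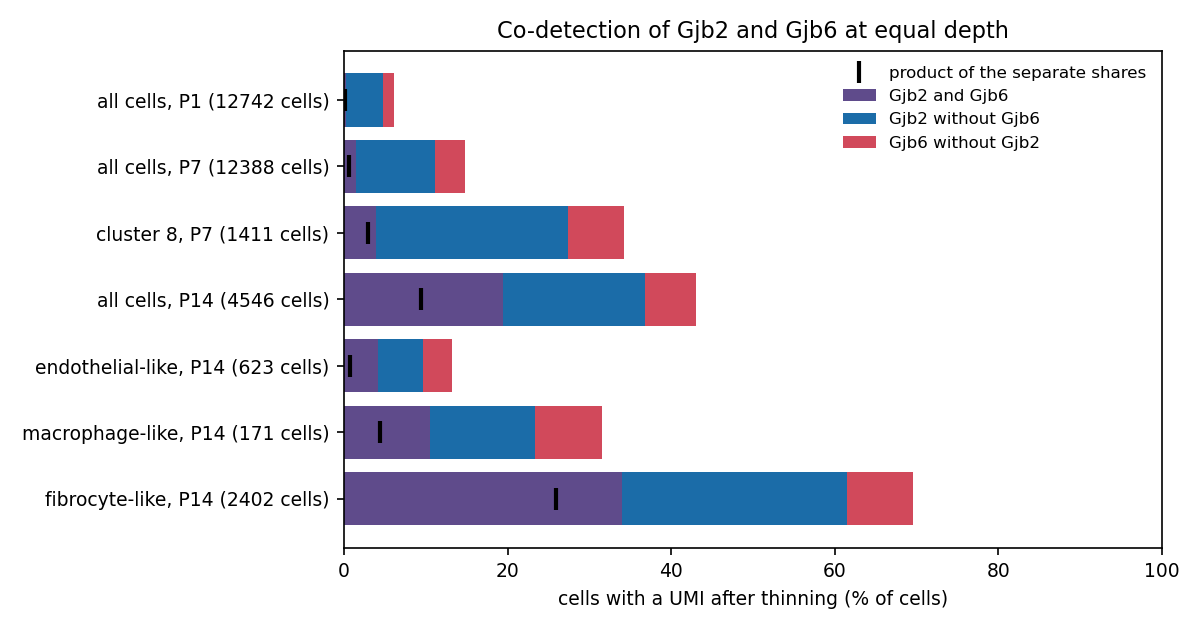
Share of thinned cells with a UMI of both Gjb2 and Gjb6, of Gjb2 without Gjb6 and of Gjb6 without Gjb2, as stacked bars in percent of cells for 7 sets of cells, with black ticks at the product of the separate shares. Both genes were found in 34.0% of fibrocyte-like cells of P14, where the product was 25.9%, and in 0.259% of P1 cells. The fibrocyte-like cells include a cluster whose fibrocyte name is uncertain.

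Across 48 groups of cluster and stage, the gene most like Gjb2 among 7750 was Gjb6, and the gene most like Gjb6 was Gjb2, with a Spearman rho of 0.94 between them. The groups share 3 libraries and their depth, so rho is a description. After Gjb6, the genes most like Gjb2 were F3 (0.85), Gsta1 (0.84), Sox9 (0.82) and AABR07070307 (0.81). Those most like Gjb6 after Gjb2 were Cemip (0.86), Gsta1 (0.86), Phyh (0.86) and Myoc (0.85). Gja1 had another set, with Dock9 (0.77), Srpx (0.75), Thbd (0.75), Castor1 (0.74) and Cxcl12 (0.74). Its rho was 0.62 with Gjb2 and 0.64 with Gjb6, which put them at ranks 40 and 26 in its order.

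The other connexins of the list had other cells. Of 17 listed, 16 were in the matrices and 6 reached 10 CPM in a type and stage of 50 cells or more. Gjc1 (connexin 45) and Gja4 (connexin 37) were highest in pericyte and smooth muscle-like cells, at 929 CPM (886 to 974) at P1 and 461 CPM (431 to 493) at P7. Gjb1 (connexin 32), a gap junction protein of Schwann cell myelin, was highest in Schwann cell and glia-like cells of P14 at 333 CPM (295 to 373), with Gjc3 at 28.8 CPM (18.6 to 42.5). Gja5 (connexin 40) was highest in endothelial-like cells of P14 at 25.3 CPM (18.0 to 34.5). None of Gjc1, Gja4, Gjb1, Gjc3 and Gja5 had its highest level in a group where Gjb2 or Gjb6 was highest.

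Genes that act beside the connexins were read from lists in the same way. Of 5 scaffold and assembly genes 5 reached 10 CPM, and Tjp1, which encodes the connexin-binding scaffold ZO-1, was highest in endothelial-like cells of P14 at 508 CPM (473 to 545). Of 3 pannexins only Panx2 did, at 19.1 CPM from 4 UMIs. Of 13 genes of potassium and ion transport 12 reached it. Slc12a2, Atp1b2, Kcne1 and Kcnq1 were highest in epithelium-like cells of P14, at 6761, 4278, 1377 and 219 CPM, and Kcne1 and Kcnq1 are also on the marginal cell list. Kcnj10, which encodes a potassium channel of intermediate cells and glia, did not reach 10 CPM. Of 12 genes of ATP and calcium signalling 11 did, among them P2rx2, an ATP-gated channel, at 467 CPM (379 to 569) in epithelium-like cells of P14, and P2ry1, an ATP receptor, at 31.05 CPM (23.4 to 40.4) in those of P7.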

How the data were processed

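The authors sequenced 10x 3′ v3 libraries of cochlear cells from pooled rats, 1 library per stage, and deposited filtered matrices of UMI counts per gene and cell barcode, made with Cell Ranger on the rat genome rn6. The submitters' processing notes also name bcl2fastq and Seurat 3.1.1. The counts were used as deposited. Kept were barcodes above 500 and below 5000 genes that held 500 or more UMIs and less than 25% of them on mitochondrial genes, 30641 cells in all. By stage, 12779 of 14068, 12581 of 14501 and 5281 of 6358 barcodes remained at P1, P7 and P14, with 98005495, 93080129 and 11641065 UMIs. Doublets were called with Scrublet through scanpy 1.11.5 and were left out only as an alternative.

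Cells were clustered in Seurat 5.3.0 under R 4.3.3, after merging the libraries, with 2000 variable genes, 10 principal components and resolution 0.8. The 8 connexin genes among the variable genes were removed first. This gave 28 clusters, of which 13 were named, into 11 broad types. A cluster was named where at least 2 genes of a marker list stood among its 10 leading genes and at least 3 were found in it, and not where over 50% of its cells were called doublets. Of 167 markers in 19 lists, 160 were in the matrices. The cluster numbers belong to this re-analysis.

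UMIs were summed over the cells of a group of 50 or more and divided by all UMIs of these cells (CPM), with exact Poisson intervals, and shares of cells were given Clopper-Pearson intervals, at 95%. A count of 0 was read against a floor of 3 counts. No test was run, since each stage had 1 library and cells are not replicates. Fold calls used log2 of CPM plus 10, over genes with 10 CPM or more in one of the compared stages. Named genes were the 3 members, the 5 genes with the highest Spearman rho to each over cluster and stage groups, and genes of fixed pathway lists that reached 10 CPM. The members, lists and alternatives were chosen with earlier results of these data known. The summing and fold steps were tested on simulated data. Alternatives changed the mitochondrial limit, doublets, shared barcodes, the mean over cells, thinning, resolution, the place of connexins in clustering, typing of single cells and the measure of likeness. Alternatives that left out cells kept the clusters. Python 3.11.15 and scipy 1.17.1 were used. Some genes of the lists are not reported here.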

Additional observations from a re-analysis of the deposited data

Results flagged for a closer look

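In the cluster led by Dlx5, Sfrp4 and Igf2, the log2 ratio of Gja1 from P1 to P7 was -2.02, while in 9 other groups the interval of this ratio lay above 0. The difference was not tested. One P1 cell held 40 of the 61 Gja1 UMIs of that cluster, and without it the ratio was -0.50.

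Connexin UMIs were also counted in barcodes that the filter left out. In 1289 barcodes of P1 the levels were 20.9 CPM for Gjb2, 6.82 CPM for Gjb6 and 10.3 CPM for Gja1. In 1920 barcodes of P7 they were 74.8 CPM for Gjb2, 21.9 CPM for Gjb6 and 22.1 CPM for Gja1. In 1077 barcodes of P14 they were 458 CPM for Gjb2, 228 CPM for Gjb6 and 91.3 CPM for Gja1, so that for each gene the stages stood in the same order as in the kept cells. All 9 values lay above the limit that a count of 0 allows.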

How the results depend on the processing

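No paired analysis was possible because each stage had 1 library. None of the log2 ratios between stages that were rerun changed sign under the alternatives. Rerun were the ratios over all cells and a few within types. The latter were otic mesenchyme-like Gjb2 and Gjb6, endothelial-like Gja1, epithelium-like Gjb6, and Gja1 of the Dlx5, Sfrp4 and Igf2 cluster. The other ratios within groups were not rerun. With the mean of each cell's CPM, the log2 ratio was 1.65 (Gjb6, P7 to P1), 2.64 (Gjb2, P14 to P7) and 2.95 (Gjb6, P14 to P7), Gjb2 was 194 CPM (P1) and 166 CPM (P7) and Gjb6 34.5 CPM (P1) in epithelium-like cells, and Gjb2 was 1669 CPM in fibrocyte-like cells. With a mitochondrial limit of 10%, the P14 to P7 ratio was 2.33 for Gjb2 and 2.58 for Gjb6, and both genes were found in 1.67% of P7 cells. At resolution 0.4, epithelium-like cells held Gjb2 at 141 CPM (P1) and 435 CPM (P14) and Gjb6 at 354 CPM (P14), with a Gjb6 ratio of P14 to P7 of 3.02. At resolution 1.2, fibrocyte-like cells held Gjb2 at 2430.4 CPM and Gjb6 at 1497 CPM, and the otic mesenchyme-like Gjb2 ratio of P7 to P1 was 1.56. With connexins in the clustering, fibrocyte-like cells held 2329 CPM (Gjb2) and 1443 CPM (Gjb6), and epithelium-like cells of P7 held 158 CPM (Gjb2) and 54.5 CPM (Gjb6). Only about the smaller fibrocyte-like cluster then kept its name, as at resolution 1.2. With cells typed singly by their own markers, epithelium-like cells of P7 held 102 CPM (Gjb2) and 26.8 CPM (Gjb6), fibrocyte-like cells Gjb6 at 865 CPM, and the otic mesenchyme-like Gjb2 ratio was 1.54. The share with both Gjb2 and Gjb6 at P1, P7, P14 and in fibrocyte-like cells was 0.0626%, 0.525%, 9.18% and 17.2% with 500 UMIs per cell. Without thinning it was 5.37%, 16.7%, 25.8% and 45.4%, and with 2 UMIs required 1.24%, 6.12%, 15.8% and 27.7%. By Pearson r, 2 of the 5 genes most like Gjb2 and 3 of those most like Gja1 were kept.

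Gjb2 and Gjb6 of fibrocyte- and epithelium-like cells were left out of the counts that follow. Of 58 other levels by type, 12 moved by over 1.5 times without called doublets and 0 without shared barcodes. Of 57, 29 did with cells typed singly. The cause of these shifts was not tested. Leaving out cells with fibrocyte marker UMIs, an alternative added after seeing the data, moved 5 of 6 macrophage- and endothelial-like values of P14 by over 1.5 times. Depth limits P14 most, where epithelium-like values rest on 60 UMIs or fewer.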
